A study of Mus musculus with 12 samples.

Results

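The Krüppel-like factors (KLFs) described here are the mouse genes Klf2, Klf3, Klf4, Klf5, Klf6, Klf7, Klf9, Klf10, Klf13 and Klf15, zinc finger transcription factors that have been linked to the making of fat cells. They were found on the array by the transcript accession of each non-control probe. The 10 genes had 15 probes, of 41174 non-control probes on the array and of 18217 genes that could be named. Klf2 (NM_008452), Klf3 (NM_008453), Klf6 (NM_011803), Klf9 (NM_010638) and Klf15 (NM_023184) had a pair of probes each, and the brighter one is called the first probe. Klf4 (NM_010637), Klf5 (NM_009769), Klf7 (NM_033563), Klf10 (NM_013692) and Klf13 (NM_021366) had 1 probe each, and each of the 15 probes was printed in 1 spot.

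3T3-L1 is a mouse embryonic fibroblast line of preadipocytes that turns into adipocytes after a hormonal stimulus. Confluent cells were harvested untreated (0 h) or 6 h after induction with 5 µg/ml insulin, 1 µM dexamethasone (a synthetic glucocorticoid) and 0.5 mM isobutylmethylxanthine (IBMX, which raises cyclic AMP). All cells were grown in DMEM with 10% newborn bovine serum, and the induction medium held 10% fetal bovine serum, so the change of serum and the hormones came together and cannot be told apart. Lysates made with cycloheximide were separated on sucrose gradients, in which mRNAs with many ribosomes run deepest. Gradient fractions 5 to 7 were pooled as the non-polysomal part and fractions 9 to 11 as the polysomal part. The 4 groups of time and pool had 3 replicates each, on 12 one-color arrays. The study describes them as biological replicates.

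KLFs bind GC-rich and CACCC sequences through zinc fingers near their C-terminus and differ in the domains before them, through which some activate and others repress transcription. In preadipocytes, members have been placed on both sides of the decision to differentiate. Klf4, Klf5, Klf6, Klf9, Klf13 and Klf15 have been reported to promote adipogenesis and Klf2, Klf3 and Klf7 to hold it back. Some of them act on Pparg, the master regulator of fat cells, or on C/EBP factors. Klf10 is placed here in neither set.

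Promoter sequences are shown because several members changed, some up and some down, after a stimulus that included an agent raising cyclic AMP. The factor CREB, which acts for cyclic AMP, binds the letters TGACG. RefSeq promoters of assembly GRCm38.p6, which run from 250 bases before to 50 bases after the start of a gene, were found for 8 of the 10 members, with no entry for Klf5 and Klf10. TGACG stood on either strand in 6 of these 8 promoters (Klf2, Klf3, Klf4, Klf9, Klf13 and Klf15) and in 20.8% of 32851 promoters of the same length. The windows below read 5′ to 3′ along the gene, and capitals mark TGACG or its reverse complement CGTCA.
Klf2, chr8:72318812-72318839, plus strand: ctggtttgtTGACGccgtcgccataggg
Klf4, chr4:55532693-55532717, minus strand: gcctggctggCGTCAcggcctggcc
Klf9, chr19:23141170-23141194, plus strand: gcctggattgTGACGtgatgggatt
Klf13, chr7:63938957-63938981, minus strand: ggctgggggcTGACGtcgggtccag
Klf15, chr6:90462488-90462512, plus strand: cgggggcgcgTGACGcgcggcgcta
The motif began 46 bases before the annotated start in Klf9, 56 bases in Klf13, 78 bases in Klf15, 232 bases in Klf4 and 241 bases in Klf2. Klf15 had another match, 6 bases before the start, and the match in Klf3 lay 19 bases after it. Both windows reach past the start and are not shown. The 8-letter palindrome TGACGTCA was in 0 of the 8 promoters and in 1.79% of all. GGGCGG, the GC box, was in 7 of the 8 and in 35.7% of all promoters, and CACCC, the box that KLFs themselves bind, was in 6 of the 8 and in 57.5% of all. GGGCGG and CACCC were also searched on both strands, and the matches of different motifs could overlap. These matches describe letters in a window and no binding was measured.

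Signals are given as the log2 of the background-subtracted Cy3 intensity, after a shift of each array that set its spike-in RNAs level with those of the other arrays. A probe was called changed where limma gave a Benjamini-Hochberg adjusted p below 0.05 over all probes and a log2 difference above 1 or below -1. Levels of different probes are on scales of their own, so each probe was compared with itself only. Of the 15 probes, 13 were well above background on all 12 arrays. The exceptions were both probes of Klf15. At a signal this far above background, the number of arrays limits the precision, and the SD over the 3 replicates had a median over the groups of 0.06 to 0.18 for the 13 probes. The 6 h polysomal arrays stood apart in their spike-ins: their mean offset was -0.35 ± 0.14 (SD, n = 3), against 0.10 to 0.13 in the other groups, and the 5 spike-ins with a mean log2 signal below 17 differed there by -0.83 on average, against -0.09 for the 5 brighter ones. Results with the 5 dimmer spike-ins alone and with a line fitted to the spike-ins are given below, and the cause of the shift was not tested. Preadipocyte and fibroblast markers were well above background on all arrays at 14 of 14 probes. Of mature adipocyte markers 9 of 12 probes were, of leukocyte markers 1 of 6 and of endothelial markers 0 of 5, and Lep was not well above background on any array. The summed log2 signal of the adipocyte markers was 15.2 to 15.4 in the non-polysomal pool over both times, and in the polysomal pool 16.4 to 16.6 at 0 h and 17.3 to 17.4 at 6 h. This sum was mostly that of Fabp4, whose brightest probe had polysomal means of 15.5 and 16.5. On polysomes 3 adipocyte marker probes were called higher and 2 lower at 6 h, against 19.2% and 5.01% of all probes. Those lower were both probes of Lipe (-1.12 and -1.14). Those higher were the probe of Cidec (1.53), 1 of the 3 probes of Fabp4 (1.15) and 1 probe of Retn (1.31). This Retn probe was not well above background on any array, so its call sets background against background. The leukocyte sum, mostly that of Lyz2, was 6.7 to 7.1 in the non-polysomal pool over both times, and 8.0 to 8.5 at 0 h and 8.5 to 8.7 at 6 h on polysomes. The endothelial sum was 3.2 to 6.0 in the non-polysomal pool over both times, and 3.3 to 3.6 at 0 h and 5.4 to 5.8 at 6 h on polysomes. At 0 h, 1 probe of Cdh5 was well above background on 1 non-polysomal array. The other probe of Cdh5 was well above background on all 3 polysomal arrays at 6 h and on none at 0 h. It was the 1 endothelial probe called higher on polysomes, by at least 3.25-fold, and 0 were called lower. The preadipocyte sum was 19.2 to 19.4 in the non-polysomal pool, and 20.04 to 20.2 at 0 h and 20.6 to 20.7 at 6 h on polysomes. The part of these markers in the Klf results was not tested.

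In the polysomal pool 6 of the 15 probes were up-regulated (Klf4, Klf5, Klf10, Klf13 and both probes of Klf9) and 5 were down-regulated (the first probe of Klf3, the second probe of Klf2, Klf7 and both probes of Klf6), while 19.2% of all probes were called higher and 5.01% lower. Fitting a line to the spike-ins gave 7 and 3, the 5 dimmer spike-ins gave 6 and 3, and quantile normalization gave 4 and 6. The probe added to those higher with the line was the first probe of Klf15, which was close to background. The probe added to those lower with quantile normalization was the second probe of Klf15, which was not well above background. In the non-polysomal pool 5 Klf probes were called higher and 5 lower, against 8.09% and 8.14% of all probes. At any size, 12 Klf probes had an adjusted p below 0.05 in the polysomal pool (62.3% of all probes) and 13 in the non-polysomal pool (40.2%). The 3 arrays of 6 h lay wholly above or below those of 0 h at 14 Klf probes in the polysomal pool (72.2% of all probes) and at 13 in the non-polysomal pool (47.9%). Klf5, Klf9, Klf10 and Klf13 were up-regulated in both pools, and 4 genes were down-regulated in both (Klf2 at 1 of its probes, Klf3 at 1 of its probes, Klf6 and Klf7). The sign of the difference was the same in the 2 pools for 12 of the 15 probes and for 66.9% of all probes. The pools come from the same lysates on separate arrays. In bulk RNA, fewer cells that hold an mRNA and less of it in each cell cannot be told apart.

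**Figure D1:**
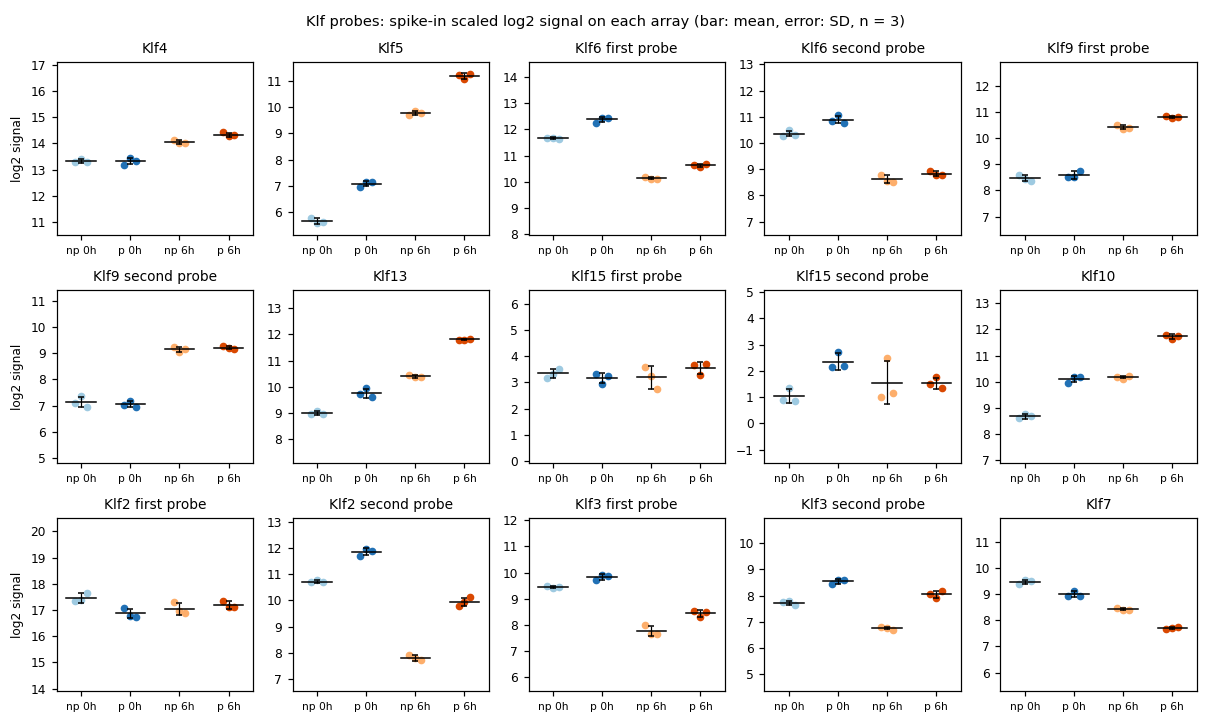
Spike-in scaled log2 signal (y axis, each panel 7 units high) of the 15 Klf probes on the 12 arrays, in the non-polysomal (np) and polysomal (p) pools at 0 h and 6 h, with points for arrays, bars for the group means and whiskers for the SD (n = 3). Klf5 rose from 5.66 to 9.78 in the non-polysomal pool and from 7.08 to 11.19 in the polysomal pool, and the second probe of Klf2 fell in both pools while its first probe stayed between 16.7 and 17.7.

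Klf5 had the largest rise of the members. It is induced by C/EBPβ and C/EBPδ early in adipogenesis and acts with them on the Pparg promoter. In the polysomal pool its log2 signals were 6.97, 7.15 and 7.13 at 0 h and 11.21, 11.08 and 11.28 at 6 h. In the non-polysomal pool they were 5.78, 5.57 and 5.64 at 0 h and 9.72, 9.85 and 9.78 at 6 h. All 6 h arrays lay above all 0 h arrays of either pool. The rise was 4.11 on the log2 scale (SE 0.09, 17.2-fold, limma adjusted p = 6.85e-10) in the polysomal pool and 4.12 (SE 0.09, 17.4-fold, limma adjusted p = 1.70e-09) in the non-polysomal pool. These differences stood at percentiles 99.7 and 99.8 of all probes.

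Klf9, which is activated by glucocorticoids in many cells and acts on Pparg in the middle of adipogenesis, had 2 probes that moved alike. At the first probe the polysomal log2 signals were 8.49, 8.53 and 8.74 at 0 h and 10.82, 10.77 and 10.80 at 6 h, and the non-polysomal ones were 8.58, 8.45 and 8.37 at 0 h and 10.49, 10.33 and 10.39 at 6 h. The groups of the 2 times did not overlap in either pool. The rise was 2.21 in log2 signal (SE 0.09, 4.62-fold, limma adjusted p = 1.96e-08) in the polysomal and 1.94 (SE 0.09, 3.83-fold) in the non-polysomal pool. The second probe gave 2.15 and 2.01. Klf9 was the member with the AP-1 letters TGANTCA in its promoter window, the only one of 8, against 7.81% of all promoters.

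Klf13, a regulator of Pparg transcription, rose in both pools. Its polysomal log2 signals were 9.72, 9.95 and 9.62 at 0 h and 11.79, 11.80 and 11.83 at 6 h. Its non-polysomal ones were 8.96, 9.08 and 8.95 at 0 h and 10.46, 10.36 and 10.39 at 6 h. The 6 h values in each pool were all above the 0 h values, by 2.05 (SE 0.09, 4.13-fold) on polysomes and by 1.40 (SE 0.09, 2.64-fold) outside them. Klf10, which was first found as an early response gene to TGFβ, had polysomal log2 signals of 9.96, 10.19 and 10.16 at 0 h and of 11.79, 11.62 and 11.76 at 6 h. Its non-polysomal signals were 8.60, 8.78 and 8.68 at 0 h and 10.19, 10.12 and 10.20 at 6 h, with no overlap between the times in either pool. Its rise was 1.62 (SE 0.09, 3.08-fold) in the polysomal and 1.48 (SE 0.09, 2.79-fold) in the non-polysomal pool. With quantile normalization the polysomal rise of Klf10 was 0.98, just under the limit for a call.

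Klf4, which acts with Egr2 (Krox20) on the Cebpb promoter in the first hours, changed less. Its polysomal log2 signals were 13.19, 13.44 and 13.34 at 0 h and 14.42, 14.27 and 14.31 at 6 h, and the non-polysomal ones were 13.28, 13.40 and 13.28 at 0 h and 14.14, 14.02 and 14.02 at 6 h. The times did not overlap in either pool. The polysomal rise was 1.01 (SE 0.09, 2.01-fold, limma adjusted p = 3.48e-06), right at the limit, and 1.23, 0.83 and 0.97 on the 3 slides. The non-polysomal difference was 0.74 (SE 0.09), below the limit of size, with a limma adjusted p of 4.73e-05. The polysomal call was lost without the first 0 h polysomal array (0.94), without the first 6 h polysomal array (0.96) and without the first slide (0.90), and with 75th percentile scaling (0.52), quantile normalization (0.04), the authors' values (0.97) and normexp correction (0.95).

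Klf6, which has been reported to repress the preadipocyte gene Dlk1, was the only member of this set that fell. At its first probe the polysomal log2 signals were 12.25, 12.44 and 12.44 at 0 h and 10.63, 10.56 and 10.70 at 6 h, and the non-polysomal ones were 11.69, 11.68 and 11.62 at 0 h and 10.19, 10.12 and 10.11 at 6 h. The 6 h values were below the 0 h values in both pools, and the second probe showed the same. The fall was 1.75 on the log2 scale at the first and 2.06 at the second probe in the polysomal pool (SE 0.08 and 0.11), so that 0 h was 3.37-fold and 4.18-fold the 6 h signal. In the non-polysomal pool the differences were -1.53 and -1.74. Klf15, which turns on the glucose transporter gene Slc2a4 in adipocytes, was close to background. Its first probe had log2 signals of 2.74 to 3.71 over the 12 arrays, was well above background on 2 or 3 arrays of each group, and was not called in any comparison. Its second probe was at background level on all 12 arrays, so differences at it set background against background. They are counted among the probes tested, and nothing is read from them.

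Of the 5 probes of the members reported to block adipogenesis, 3 were called lower and 0 higher in each pool. Of all probes, 5.01% were called lower and 19.2% higher on polysomes, and 8.14% and 8.09% outside them. Of the 9 probes of the members reported to promote adipogenesis, 5 were called higher and 2 lower on polysomes, and 4 and 2 outside them. Klf2 represses the Pparg promoter in preadipocytes. The second probe of Klf2 had polysomal log2 signals of 11.70, 11.96 and 11.88 at 0 h and 9.78, 9.93 and 10.11 at 6 h. Its non-polysomal signals were 10.68, 10.77 and 10.70 at 0 h and 7.92, 7.79 and 7.71 at 6 h. No 6 h value reached a 0 h value of its pool. The differences were -1.91 (SE 0.11, a fall of 3.76-fold) on polysomes and -2.91 (SE 0.11, a fall of 7.52-fold, limma adjusted p = 2.46e-08) outside them.

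The first probe of Klf2 did not show this fall. Its polysomal log2 signals were 17.08, 16.78 and 16.75 at 0 h and 17.35, 17.10 and 17.12 at 6 h, and its non-polysomal ones 17.35, 17.37 and 17.66 at 0 h and 17.31, 16.94 and 16.90 at 6 h. The differences were 0.32 (SE 0.15, limma adjusted p = 0.080) and -0.41 (SE 0.15, limma adjusted p = 0.049), both below the limit of size. The 2 probes of Klf2 thus disagreed, and the reason was not tested. With the mean of both probes, Klf2 was called lower in the non-polysomal pool (-1.66) and not in the polysomal pool (-0.79).

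Klf3, which represses Cebpa together with CtBP, fell at its first probe. The polysomal log2 signals there were 9.71, 9.91 and 9.88 at 0 h and 8.53, 8.30 and 8.51 at 6 h, and the non-polysomal ones were 9.48, 9.41 and 9.44 at 0 h and 8.003, 7.66 and 7.65 at 6 h. The 6 h values were again all lower, by 1.39 on the log2 scale on polysomes (a difference of -1.39, SE 0.11) and by 1.68 outside them (-1.68, SE 0.11). The second probe gave -0.50 (SE 0.09, limma adjusted p = 7.84e-04) and -0.96 (SE 0.09), short of the limit of size. Klf7, whose overexpression keeps preadipocytes from differentiating, had polysomal log2 signals of 8.93, 9.13 and 8.92 at 0 h and 7.66, 7.69 and 7.74 at 6 h. Its non-polysomal signals were 9.39, 9.53 and 9.49 at 0 h and 8.47, 8.38 and 8.41 at 6 h, again without overlap. The differences were -1.29 (SE 0.08, a fall of 2.45-fold) and -1.05 (SE 0.08, a fall of 2.07-fold). With the 5 dimmer spike-ins only, the polysomal differences of the first probe of Klf3 and of Klf7 were -0.98 and -0.89, and with a line fitted to the spike-ins -0.88 and -0.73, so that both calls were lost. Normexp correction gave -0.98 and -0.93 for Klf7 in the polysomal and non-polysomal pools.

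**Figure D2:**
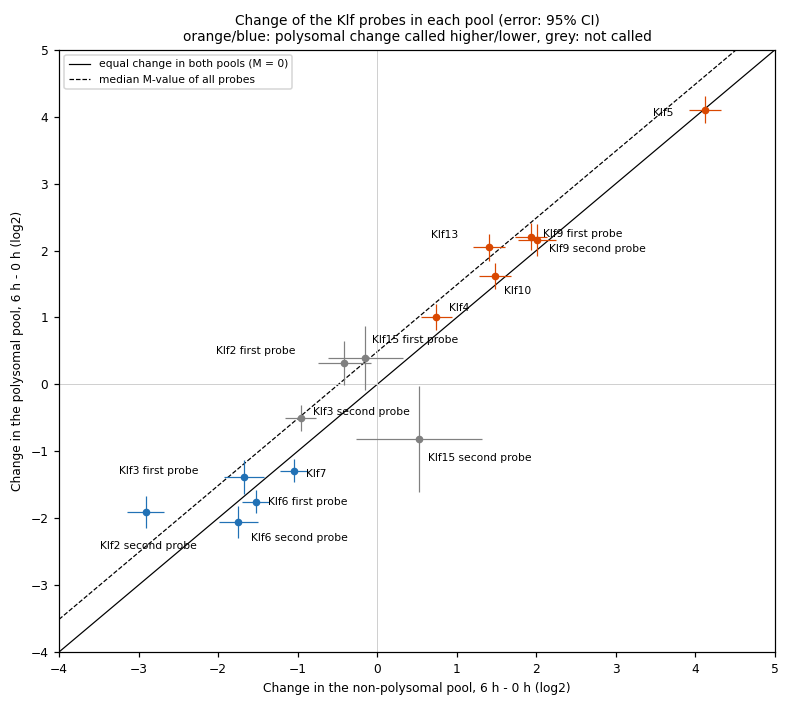
Log2 difference of 6 h minus 0 h in the non-polysomal pool (x axis) and in the polysomal pool (y axis) for the 15 Klf probes. Points are limma estimates and whiskers 95% confidence intervals, orange and blue mark probes called higher and lower on polysomes, and grey marks those not called. The called probes lay in the upper right (Klf5 at 4.12 and 4.11) or lower left quadrant, and the second probe of Klf2 (-2.91 and -1.91) lay farthest above the line of equal change among the probes well above background.

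The shift of mRNA between the pools was measured by the M-value, the polysomal minus non-polysomal log2 difference at 6 h less that at 0 h. None of the 15 Klf probes had a called M-value, against 12.1% of all probes called higher and 1.31% called lower. Without the limit of size, 4 of the 15 had a limma adjusted p below 0.05, against 36.1% of all probes, and 5 had an unadjusted p below 0.05. The median M-value of all probes was 0.49, and that of the Klf probes was 0.26. The largest was that of the second probe of Klf2, 1.00 (SE 0.15, limma adjusted p = 6.15e-04), which lay just under the limit and was 0.84, 0.94 and 1.22 on the 3 slides. Leaving out single arrays or slides took it to 1.01 to 1.08, past the limit, in 9 of 15 cases. At this probe the fall on polysomes was smaller than the fall outside them. The first probe of Klf2 had 0.74 (SE 0.21), Klf13 had 0.64 (SE 0.13) and the second probe of Klf3 had 0.46 (SE 0.13).

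Klf5 had an M-value of -0.01 (95% confidence interval -0.29 to 0.27, limma adjusted p = 0.94), but this rests on the scaling: over the alternatives it ran from -0.77 with quantile normalization to 0.46 with a line fitted to the spike-ins. Klf10 had 0.14 (-0.14 to 0.42), Klf4 0.26 (-0.01 to 0.53) and the 2 probes of Klf9 0.27 and 0.14. Klf6, with -0.22 and -0.32, and Klf7, with -0.24, had M-values below 0 with limma adjusted p-values of 0.11 to 0.12. Relative to the median of all probes these were -0.71, -0.81 and -0.73. The M-values moved with the scaling as a group: the median of all probes was 0.06 with 75th percentile scaling and 1.41 with a line fitted to the spike-ins. That of the first probe of Klf6 was 0.23 with the dimmer spike-ins only, and that of Klf10 was -0.28 with 75th percentile scaling.

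**Figure D3:**
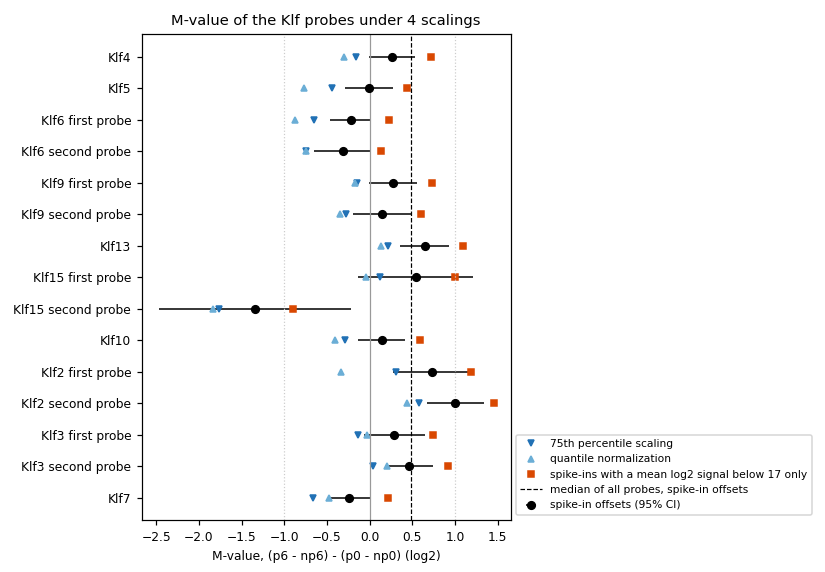
M-value (x axis, log2) of the 15 Klf probes, with black points and 95% confidence intervals for the spike-in offsets and coloured marks for 3 other scalings. Dotted lines stand at the limits of -1 and 1 and the dashed line at the median of all probes, 0.49. No black point passes a limit except the second probe of Klf15, which was not well above background and had a limma adjusted p of 0.062, and the coloured marks shift left with 75th percentile or quantile scaling and right with the dimmer spike-ins.

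Within each time, 4 of the 15 probes had a called higher signal on polysomes at 0 h, against 27.4% of all probes, and 5 at 6 h, against 37.4%. By limma 0 were called lower at either time, against 9.81% and 6.41% of all probes, and 2 at 0 h and 1 at 6 h were lower at an unadjusted p below 0.05. The probes called higher at 0 h were Klf10 and Klf5, with polysomal minus non-polysomal log2 differences of 1.42 each, the second probe of Klf2 with 1.13, and the second probe of Klf15, which was not well above background. Those called higher at 6 h were the second probe of Klf2 with 2.13, Klf10 with 1.56, Klf13 with 1.41, Klf5 with 1.41 and the second probe of Klf3 with 1.29. Klf7 had a lower polysomal signal at both times (-0.48 and -0.72), short of the limit. The first probe of Klf2 had -0.59 at 0 h, also short of it, and 0.14 at 6 h. At any size, the adjusted p was below 0.05 for 11 probes at 0 h (52% of all) and 10 at 6 h (70% of all), and the arrays of the 2 pools did not overlap for 11 (54.9% of all) and 10 (78% of all). These differences rest on the scaling between pools. With 75th percentile scaling 0 probes were called higher at either time and 3 and 6 were called lower, a probe of Klf15 among each. The differences of Klf5 were then 0.53 at 0 h and 0.09 at 6 h.

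**Figure D4:**
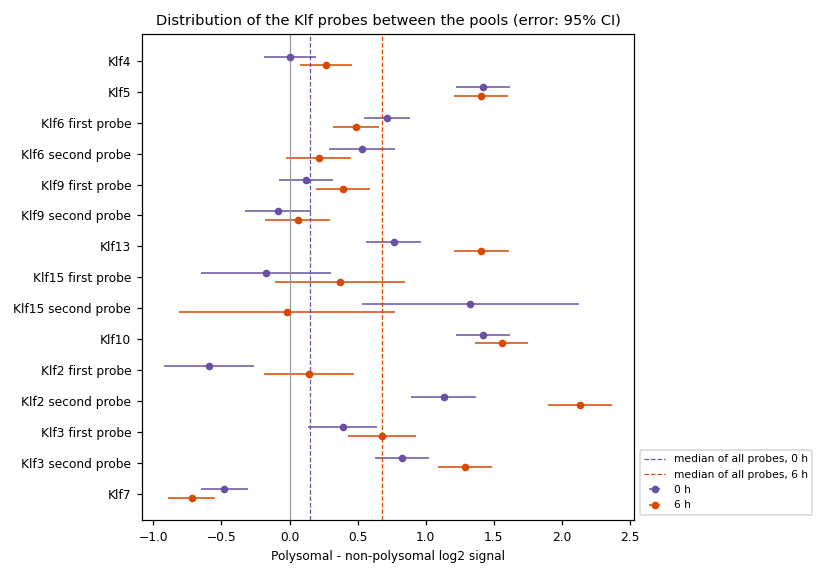
Polysomal minus non-polysomal log2 signal (x axis) of the 15 Klf probes at 0 h and 6 h, as limma estimates with 95% confidence intervals after scaling by the spike-ins. Dashed lines are the medians of all probes, 0.15 at 0 h and 0.68 at 6 h. Klf5 and Klf10 lay near 1.4 to 1.6 at both times and Klf7 below 0, while with 75th percentile scaling 9 of the positive differences at 6 h turned negative.

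The mRNAs whose signals over the 12 arrays were most like those of the 3 members with the widest range were named by Pearson's r, among genes whose group means spanned at least 50% of that range. For Klf5 they included Vdr and Rgs2, with r of 0.998 to 0.999 over the 12 arrays, which fall into 4 groups. For Klf10 they were Sh3pxd2b, Pcbp3 and Hip1r, and for Klf13 they were Pvr, Dusp6 and Pmvk, with r in the same range.

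Of 21 probes of the other 15 KLF and SP genes, 1 was called higher and 4 lower on polysomes, against 19.2% and 5.01% of all probes. Outside polysomes 0 were called higher and 6 lower, against 8.09% and 8.14% of all probes. The median log2 differences were 0.12 on polysomes and -0.50 outside them, beside 0.54 and 0.04 for all probes. Only 8 of the 21 were well above background on every array. Klf16 rose by 1.96 (SE 0.09) on polysomes and differed by 0.60 outside them, and 1 of the probes of Klf12 had differences of -1.33 and -1.45. Both probes of Klf11, whose product is closest to that of Klf10, were called lower outside polysomes, but they disagreed on polysomes. At 1 probe the fall outside polysomes was at least 4.56-fold, to a signal not well above background. Its polysomal means were 6.13 at 0 h and 3.73 at 6 h. The other probe differed by -1.75 (SE 0.36) outside polysomes and had polysomal means of 5.10 and 5.22. Its M-value of 1.87 was called. M-values of 4 probes were called higher, Klf16 with 1.36 among them, against 12.1% of all probes.

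Of 24 probes of 18 partners and targets of the KLFs, 7 were called higher and 1 lower on polysomes, and 3 higher and 2 lower outside them. Of all probes, 19.2% were called higher and 5.01% lower on polysomes and 8.09% and 8.14% outside them. The list's medians were 0.54 on polysomes, the same as for all probes, and -0.21 outside them, against 0.04. Cebpb, the target of Klf4 that acts before Klf5, rose by 4.35 (SE 0.09) on polysomes and by 2.82 (SE 0.09) outside them, with group means of 9.52 and 13.87 on polysomes and 9.36 and 12.18 outside. Its M-value of 1.54 was 1 of 9 called higher among the 24 probes, against 12.1% of all probes. By M-value 0 of the 24 were called lower, against 1.31%. Cebpd, the other C/EBP factor named above with Klf5, had means at 0 h and 6 h of 16.3 and 17.3 on polysomes. Outside them its means were 14.2 (over 2 arrays, an outlier spot being left out) and 13.9. In neither pool did its change over time reach the limit of size. Cebpa rose on polysomes at both of its probes, by 1.20 and 1.15, and differed by 0.16 and 0.35 outside them. Ctbp2, a partner of Klf3, rose by 2.05 and 1.89 on polysomes, and Tgfb1 by 2.34. Dlk1, which Klf6 has been reported to repress, rose by 1.24 on polysomes and differed by -0.08 outside them. Gata3, a brake on adipogenesis like Klf2, was at least 7.45-fold lower at 6 h outside polysomes, where it was not well above background on any array. Pparg, on which several members act, had differences of -0.05 and -0.32, and Egr2 of 0.89 and 0.14, and neither was called. Values of the lists of other genes and of the markers are given for the spike-in offsets only. Whether their calls hold under the other scalings was not tested. The median polysomal difference of all probes was 0.05 with 75th percentile scaling, against 0.54 with the spike-in offsets.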

How the data were processed

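Per the file headers, Agilent Feature Extraction 10.7.1.1 read 45018 spots per array (1639 controls) and wrote their Cy3 intensity less background, which the authors deposited without scaling between arrays. The authors also deposited log2 values, which equal the log2 median pixel of a probe's spots plus a constant per array. From the intensities, spots marked as outliers were left out, log2 signals of a probe were averaged, and each array was shifted by the mean of 10 spike-in transcripts with 32 spots each. The 4 groups were fitted together in R 4.3.3 with limma 3.58.1 (lmFit, eBayes) with Benjamini-Hochberg adjustment over all probes. Tables were read with data.table, version 1.17.8. The steps were tested on simulated data. A gene symbol was found for 64.8% of probes. The replicate number is also the slide and the scan time, and each of the 3 slides held 1 array of each group.

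The members and lists were chosen with earlier results of these data known. All probes of the 10 members are described, the brighter probe of a gene first. Of the 2 lists of other genes, counts are given with values for some of the called genes and for Pparg, Egr2 and Cebpd. 1 of the genes most like Klf5 is not reported here. Where a list gene was measured above background in only 1 of the groups compared, a bound is given, against the lowest signal well above background on each array. Alternatives were 75th percentile scaling, quantile normalization, a line through the spike-ins, the authors' values, a filter on dim probes, outlier spots kept, the replicate as a block, gene means, and leaving out each array or slide. Chosen after seeing the data were normexp correction fitted on uniform spots and the 5 dimmer spike-ins alone.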

Additional observations from a re-analysis of the deposited data

Results flagged for a closer look

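The change after induction differed between the pools, by limma's test of the interaction of time and pool, at 4 probes of 3 members. M-values were 1.00 (SE 0.15; limma adjusted p = 6.15e-04) at the second probe of Klf2, 0.74 (SE 0.21; limma adjusted p = 0.021) at its first probe, 0.64 (SE 0.13; limma adjusted p = 0.0031) for Klf13 and 0.46 (SE 0.13; limma adjusted p = 0.017) at the second probe of Klf3. All 3 slides gave a positive value at each of these probes. They stood at percentiles 80.4, 67.4, 61.8 and 46.6 of the M-values of all probes, of which 36.1% had an adjusted p below 0.05. The value at the second probe of Klf2 was at least 0.44 under every alternative. The others rested on the scaling: Klf13 was 0.14 (limma adjusted p = 0.39) and the first probe of Klf2 -0.33 (limma adjusted p = 0.24) with quantile normalization, and the second probe of Klf3 was 0.037 (limma adjusted p = 0.81) with 75th percentile scaling. Without whole slides the limma adjusted p of these 3 was also above 0.05, for Klf13 without the first or the last slide (up to 0.073), for the second probe of Klf3 without any 1 slide (up to 0.16), and for the first probe of Klf2 without the second or the last slide (up to 0.17) or the second 6 h non-polysomal array.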

How the results depend on the processing

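The calls over time of Klf5, Klf9, Klf13, Klf6 and the second probe of Klf2 kept their direction and their side of the limits in both pools under all 24 alternatives for single probes. Over all comparisons of single probes, 1672 values kept both, 34 lost a call with the same direction, 38 gained one and 51 reversed. A change of sign was counted as a reversal only where the adjusted p was below 0.05 under the main or the alternative setting. With 3 arrays a group, differences within the array-to-array spread were not detectable, and both Klf15 probes were limited by background. The planned normexp fit over all spots failed on 3 arrays and was not used.

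Counts of called Klf probes moved as follows; each lower M-value counted is that of the second probe of Klf15, which was not well above background. With 75th percentile scaling 0 were higher on polysomes at 0 h and 0 at 6 h, 3 and 6 were lower, and 1 M-value was lower. The 3 and the 6 each held a probe of Klf15. With quantile normalization 1 was higher at 0 h (the second probe of Klf15) and 0 at 6 h, 1 and 3 were lower, and 1 M-value was lower. A straight line through the spike-ins gave 8 higher on polysomes at 6 h, 4 higher M-values and 3 probes that fell in the polysomal pool. Both probes of Klf15 were among the 8, and its first probe, close to background, was among the 4. The 5 dimmer spike-ins gave 3 higher M-values and 3 probes that fell in the polysomal pool. Normexp correction gave 2 higher at 0 h. Means per gene gave 2 genes higher at 0 h and 2 that fell in the polysomal pool. Leaving out single arrays or slides gave 0 to 1 higher and 0 to 1 lower M-values. In these same leave-outs the other counts were 5 to 6 up-regulated and 5 down-regulated in the polysomal pool, 5 up-regulated and 5 to 6 down-regulated in the non-polysomal pool, 3 to 4 higher on polysomes at 0 h and 5 at 6 h, and 0 lower at either time. The M-value of the second probe of Klf2 passed the limit at 1.01 to 1.08 without the first or the last 0 h non-polysomal array, the second or the last 0 h polysomal array, the first 6 h non-polysomal array, the first or the second 6 h polysomal array, or the first or the second slide. The non-polysomal fall of the second probe of Klf3 was called without the last 0 h non-polysomal array (-1.01).

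Reversals were mostly those of the polysomal against the non-polysomal signal. With 75th percentile scaling this log2 difference at 0 h was -0.88 for Klf4, -0.13 for Klf13, -0.77 for the first probe of Klf9, -0.18 and -0.36 for the probes of Klf6, and -0.50 and -0.063 for those of Klf3. At 6 h it was -1.04 for Klf4, -0.94 for the first probe of Klf15, -0.92 and -1.25 for Klf9, -0.82 and -1.10 for Klf6, -0.63 and -0.026 for Klf3, and -1.17 for the first probe of Klf2. The M-value of Klf10 was -0.28. With quantile normalization the difference at 0 h was -0.52 for Klf4, -0.14 for Klf13, -0.80 for the first probe of Klf9, -0.00616 and -0.33 for Klf6, and -0.52 and -0.0581 for Klf3. At 6 h it was -0.82 for Klf4, -0.0072 for Klf13, -0.97 and -1.26 for Klf9, -0.88 and -1.08 for Klf6, -0.55 for the first probe of Klf3, and -0.53 for the first probe of Klf2. M-values were then -0.30 for Klf4, -0.41 for Klf10, -0.33 for the first probe of Klf2 and -0.35 for the second of Klf9, and the polysomal change of the first probe of Klf2 was -0.96. A straight line through the spike-ins turned the M-values of Klf5 and Klf7 to 0.46 and 0.43, the polysomal change of the second probe of Klf3 to 0.053 and the 6 h difference of the second probe of Klf15 to 1.03. The M-value of Klf5 was 0.44 with the dimmer spike-ins and 0.44 with normexp correction, and that of the first probe of Klf6 was 0.23 with the dimmer spike-ins. The second probe of Klf15, which was not well above background on any array, so that its values carry no direction, turned with the authors' values (polysomal change 0.28, 6 h difference 0.42, M-value 0.32), with normexp correction (0.37, 0.34 and 0.28) and without single arrays or slides (6 h difference -0.30 to 0.45). The causes were not tested.

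Replicates of the same number deviated from their group means with correlations of -0.08 to 0.21 (median 0.05), 3 of 18 pairs above 0.1. For pairs of different numbers these were -0.19 to 0.12 (median -0.03), 1 of 36 above 0.1. Arrays of the same number were thus slightly more alike, and whether the numbers pair the arrays was not tested. With the replicate number as a block, 1 M-value was counted lower, that of the second probe of Klf15, which was not well above background (-1.35), and no other call on a Klf probe changed.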
